A study of Homo sapiens with 2 samples.

Results

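The MHC class II genes of antigen presentation were followed in 2 human prostate cancer cell lines, MDA PCa 2b and LNCaP. The members were taken by symbol from the deposited count table: HLA-DRA, HLA-DRB1, HLA-DPA1, HLA-DPB1, HLA-DQA1, HLA-DMA, HLA-DMB, HLA-DOA, CD74 and CIITA, 10 of 20802 amplicons. All 10 had a row. The list was drawn up with the counts of both libraries already known, so the values of its members are a description and carry no test. The series set out to compare cancer gene expression between prostate cancer lines. Each line had 1 library made from total RNA. MDA PCa 2b was grown from a bone metastasis of prostate cancer and LNCaP from a lymph node metastasis. Both are labelled wild type, with no drug, cytokine or engineered allele given for either. With 1 library per line, the line and its library cannot be told apart.

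MHC class II molecules are pairs of an alpha and a beta chain that carry peptides from endosomes to the cell surface, where CD4+ T cells read them. The classical pairs are HLA-DR, HLA-DP and HLA-DQ. In the endoplasmic reticulum the invariant chain CD74 occupies their groove. Proteases then trim CD74 in endosomes, and HLA-DM exchanges the remaining fragment for peptide under the control of HLA-DO. The coactivator CIITA does not bind DNA itself. It docks on the X and Y boxes of class II promoters through the RFX complex, CREB1 and NF-Y. B cells, dendritic cells and macrophages make class II constitutively, while interferon gamma can switch on CIITA and class II in many epithelial cells, prostate epithelium among them.

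Counts summed to 8558660 in MDA PCa 2b and 10778061 in LNCaP. Levels are given as CPM, that is counts brought to a common library size with edgeR's TMM scaling, so that a single count was worth 0.117 CPM in MDA PCa 2b and 0.0923 CPM in LNCaP. Genes with 10 or more counts in either library were taken as measured, which held for 14418 amplicons. A gene was called higher in a line when the end of the exact 95% interval of its ratio closest to 1 lay beyond 2-fold. PCR copies carried no molecular tags here, so the intervals reflect counting error and no other source of spread. The assay reads 1 amplicon per gene, so a level compared between genes compares amplicons and is not scaled by transcript length. HLA genes are highly polymorphic and have near-identical copies. The rows of HLA-DRB1 and HLA-DQA1 list several gene identifiers in the deposited table, so their values in particular are uncertain. Prostate luminal markers were present in both libraries: 9 of 10 were found, all were measured, and KLK3, which encodes prostate-specific antigen, had 15559 counts in MDA PCa 2b and 5952 in LNCaP.

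RefSeq start-site windows, running from 250 bases before to 50 bases after an annotated start, were matched for 8 of the 10 members, and HLA-DPA1 had a pair of starts, which made 9 windows. HLA-DRA and CIITA were not matched. The windows were searched on both strands for a core of the X1 box (GCAAC, bound by RFX), the X2 box (CGTCA, bound by CREB1) and the Y box (GATTGG, bound by NF-Y). They are shown because these boxes are the platform on which CIITA acts, for members at or near 0 (HLA-DRB1, HLA-DOA, CD74) and for members with more counts (HLA-DMA, HLA-DMB). The stretches below are in GRCh38.p14, 5′ to 3′ on the strand of the gene, from position -135 to position -16 with the annotated start at 0, each 120 bases long. Capitals mark a core, on either strand. HLA-DRB1 lies at chr6:32589864-32589983, HLA-DOA at chr6:33009607-33009726, HLA-DMA at chr6:32953113-32953232, HLA-DMB at chr6:32941044-32941163 and CD74 at chr5:150412926-150413045, all on the minus strand.
HLA-DRB1: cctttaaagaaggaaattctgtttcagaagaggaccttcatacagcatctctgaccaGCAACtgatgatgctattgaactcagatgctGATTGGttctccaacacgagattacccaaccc
HLA-DOA: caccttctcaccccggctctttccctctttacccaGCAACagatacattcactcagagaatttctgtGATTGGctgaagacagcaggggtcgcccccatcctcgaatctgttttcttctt
HLA-DMA: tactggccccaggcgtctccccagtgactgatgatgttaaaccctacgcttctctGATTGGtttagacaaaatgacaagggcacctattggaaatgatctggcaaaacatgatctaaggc
HLA-DMB: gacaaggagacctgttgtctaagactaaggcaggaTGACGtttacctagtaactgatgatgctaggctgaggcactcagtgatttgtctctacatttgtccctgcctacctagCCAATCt
CD74: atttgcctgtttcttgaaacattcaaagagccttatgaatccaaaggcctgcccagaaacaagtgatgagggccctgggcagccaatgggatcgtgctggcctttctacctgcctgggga

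The HLA-DRB1 stretch holds an X1 core at -78 and a Y core at -47, and the HLA-DOA stretch holds an X1 core at -100 and a Y core at -68, with both cores on the strand of the gene. An X1 core followed by a Y core starting 25 to 45 bases further on was found in 2 of the 9 member windows, and in 0.225% of all 35116 RefSeq windows of this length. In the HLA-DMA stretch the Y core stands at -80. In the HLA-DMB stretch the X2 core at -100 and the Y core at -22 both lie on the other strand. None of the 3 cores was found in the windows of CD74 and HLA-DQA1. Taken one by one, the X1 core was found in 4, the X2 core in 4 and the Y core in 5 of the 9 member windows, against 33.6%, 24.6% and 15.1% of all windows. No core matches overlapped in the member windows. A match is a string of letters and not a bound site, and its absence says only that these letters are not in this window.

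**Figure D1:**
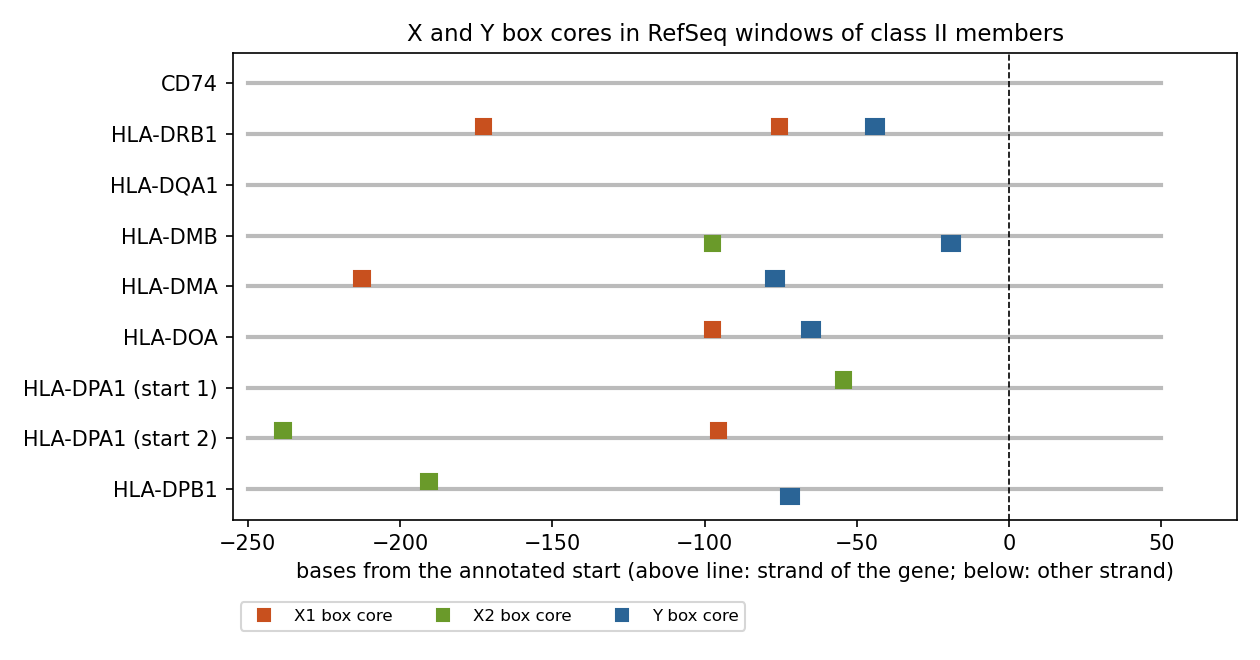
Positions of X1, X2 and Y box cores in the 9 RefSeq windows of class II members, in bases from the annotated start (x axis, dashed line at 0), with 1 row per window and matches on the other strand drawn below the line. HLA-DRB1 and HLA-DOA hold an X1 core followed by a Y core on the strand of the gene.

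HLA-DRA, the alpha chain of HLA-DR and the least variable of the classical class II chains, had 23114 counts in MDA PCa 2b and 4 in LNCaP. That is 2716 CPM in MDA PCa 2b (exact Poisson 95% interval 2681 to 2751) and 0.369 CPM in LNCaP (0.101 to 0.945). It ranked 28 among 20802 amplicons in MDA PCa 2b, while its 4 counts in LNCaP are close to nothing. The ratio of MDA PCa 2b over LNCaP was 7359 (exact 95% interval 2874 to 27010), and 0 measured genes had a ratio with a higher near end. The width of this interval comes from the 4 LNCaP counts. HLA-DRA alone took 0.270% of all counts in the MDA PCa 2b library (exact 95% interval 0.267 to 0.274).

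HLA-DRB1, the beta chain that pairs with HLA-DRA, had 0 counts in MDA PCa 2b and 2 in LNCaP. At 0 counts, a level of up to 3 counts is allowed, which is 0.352 CPM in MDA PCa 2b. The partner of the most abundant class II transcript was therefore not detected at this depth in the line where HLA-DRA was high. HLA-DRB3, HLA-DRB4 and HLA-DRB5, which encode alternative DR beta chains, were not analysed here. The row of the pseudogene HLA-DRB6 held 0 counts in MDA PCa 2b and 0 in LNCaP.

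The HLA-DP and HLA-DQ chains were low in both lines. HLA-DPA1, the DP alpha chain, had 2 counts in MDA PCa 2b and 13 in LNCaP, at 0.235 and 1.20 CPM. It was 5.10-fold higher in LNCaP, but the interval of 1.16 to 46.6 reached below 2-fold. HLA-DPB1, its beta chain, had 0 counts in both libraries. HLA-DPA1 was thus the one classical chain whose higher count lay in LNCaP with at least 10 counts, and its partner was not seen there either. HLA-DQA1, the DQ alpha chain, had 21 counts in MDA PCa 2b and 14 in LNCaP, a ratio of 1.91 (0.926 to 4.06) that counting error does not separate from 1. Summed, the 4 classical chains other than HLA-DRA had 23 counts in MDA PCa 2b and 29 in LNCaP, or 2.70 and 2.68 CPM (ratio 1.01, 0.558 to 1.81).

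The chains of the peptide editor HLA-DM were higher in MDA PCa 2b. HLA-DMA had 148 counts in MDA PCa 2b and 90 in LNCaP, at 17.4 CPM (14.7 to 20.4) and 8.30 CPM (6.68 to 10.2). Its ratio of 2.09 (1.60 to 2.75) excluded 1 but not a value under 2. HLA-DMB had 13 counts in MDA PCa 2b and 0 in LNCaP, at least 5.52-fold higher when the 13 counts are set against 3 in LNCaP, with a lower interval end of 3.88. Together the HLA-DM chains were 2.28-fold higher in MDA PCa 2b (1.75 to 2.98). HLA-DOA, the alpha chain of the HLA-DM inhibitor HLA-DO, had 0 counts in both libraries. Its beta chain HLA-DOB had 7 counts in MDA PCa 2b and 1 in LNCaP, too few to be measured.

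CD74, the invariant chain, had 0 counts in MDA PCa 2b and 0 in LNCaP, which allows up to 0.352 CPM in MDA PCa 2b and 0.277 CPM in LNCaP. In MDA PCa 2b the upper limit for CD74 therefore stood against 2716 CPM of HLA-DRA. CIITA, the coactivator of class II transcription, had 63 counts in MDA PCa 2b and 45 in LNCaP, at 7.40 CPM (5.69 to 9.47) and 4.15 CPM (3.03 to 5.56). Its ratio was 1.78 (1.20 to 2.67). Counts for CIITA were thus found in both lines, somewhat more in MDA PCa 2b, with a difference that the interval did not place beyond 2-fold. CIITA had more counts than 49.9% of amplicons in MDA PCa 2b and 44.6% in LNCaP. How much of so low a count is background of the assay was not tested.

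**Figure D2:**
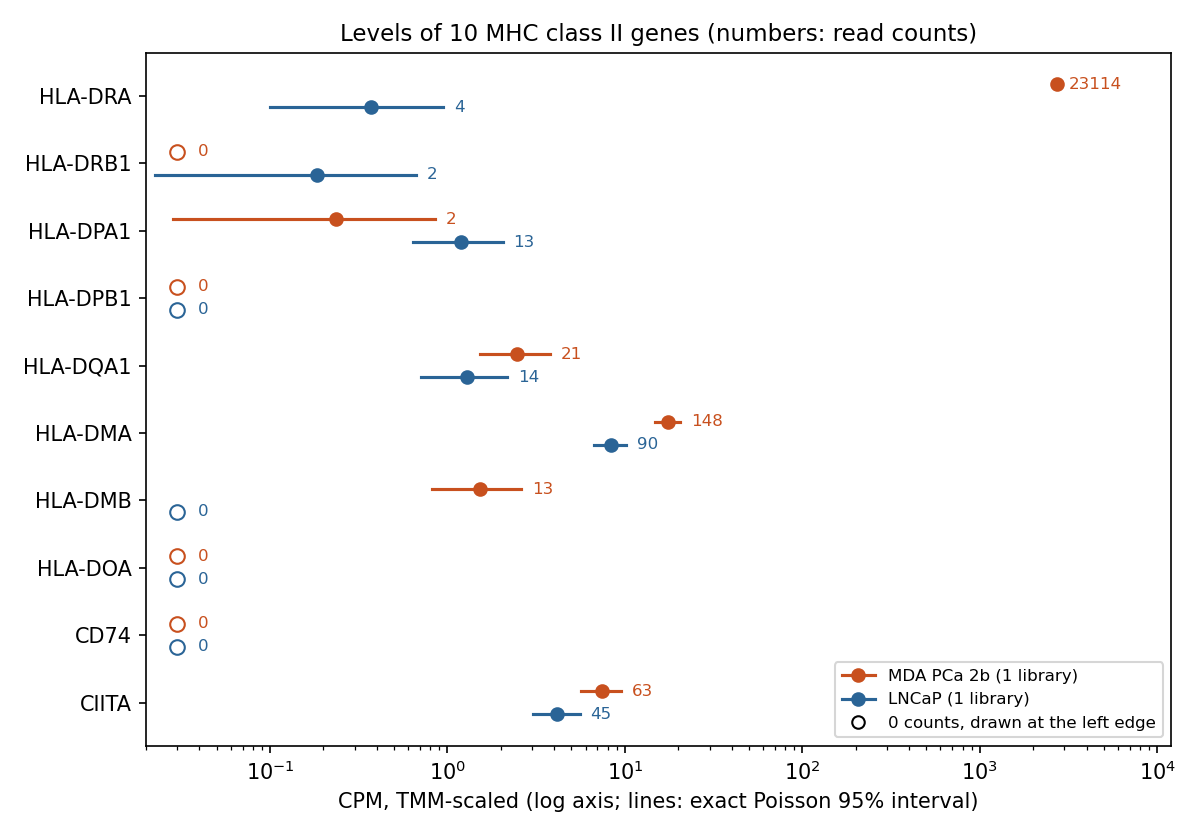
Level of each class II member in MDA PCa 2b (orange) and LNCaP (blue), 1 library per line, in TMM-scaled CPM on a log axis, with lines for the exact Poisson 95% interval and the read count printed beside each point. HLA-DRA stands at 2716 CPM in MDA PCa 2b and 0.369 CPM in LNCaP, and open circles at the left edge mark members with 0 counts.

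Of the 10 members, 6 were measured, 2 of them (HLA-DRA and HLA-DMB) were called higher in MDA PCa 2b, and 0 were called higher in LNCaP. Over all 14418 measured genes, 10.9% were called higher in MDA PCa 2b and 13.2% were called higher in LNCaP. Since the members were chosen on these counts, nothing is read from their share. The median log2 ratio of the 6 measured members was 0.99, beside -0.0018 over all measured genes. HLA-DMB passed the count minimum through MDA PCa 2b alone and HLA-DPA1 through LNCaP alone. Of the 4 members that were not measured, HLA-DPB1, HLA-DOA and CD74 were at 0 in both libraries.

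Within MDA PCa 2b the order of levels was HLA-DRA, HLA-DMA, CIITA, HLA-DQA1, HLA-DMB and HLA-DPA1, with 4 members at 0. The intervals of HLA-DQA1 (1.53 to 3.77 CPM) and HLA-DMB (0.813 to 2.61 CPM) overlapped, as did those of HLA-DMB and HLA-DPA1 (0.0285 to 0.849 CPM), while those of HLA-DRA, HLA-DMA and CIITA were apart. Within LNCaP the order was HLA-DMA, CIITA, HLA-DQA1, HLA-DPA1, HLA-DRA and HLA-DRB1, and every neighbouring pair after CIITA overlapped. HLA-DRA therefore led in one line and stood among the barely detected members in the other. It made up 98.9% of the 23361 member counts in MDA PCa 2b (98.8 to 99.1) and 2.38% of the 168 member counts in LNCaP (0.652 to 5.98). Without it, the 9 other members had 247 counts in MDA PCa 2b and 164 in LNCaP, a ratio of 1.92 (1.57 to 2.35).

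Other class II genes in the table had at most 15 counts in a library, fewer than HLA-DMA or CIITA. HLA-DQA2, a second DQ alpha gene, had 5 counts in MDA PCa 2b and 15 in LNCaP (2.36-fold higher in LNCaP, 0.814 to 8.29). The pseudogene HLA-DPB2 had 13 counts in MDA PCa 2b and 6 in LNCaP (ratio 2.76, 0.978 to 8.85). HLA-DQB2 was at 0 in both, and HLA-DQB1 was not analysed here. Of the 5 genes found, 2 were measured and 0 were called higher in either line, beside 10.9% and 13.2% of all measured genes. HLA-DRA had 23114 of the 23386 counts of members and these genes together in MDA PCa 2b.

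**Figure D3:**
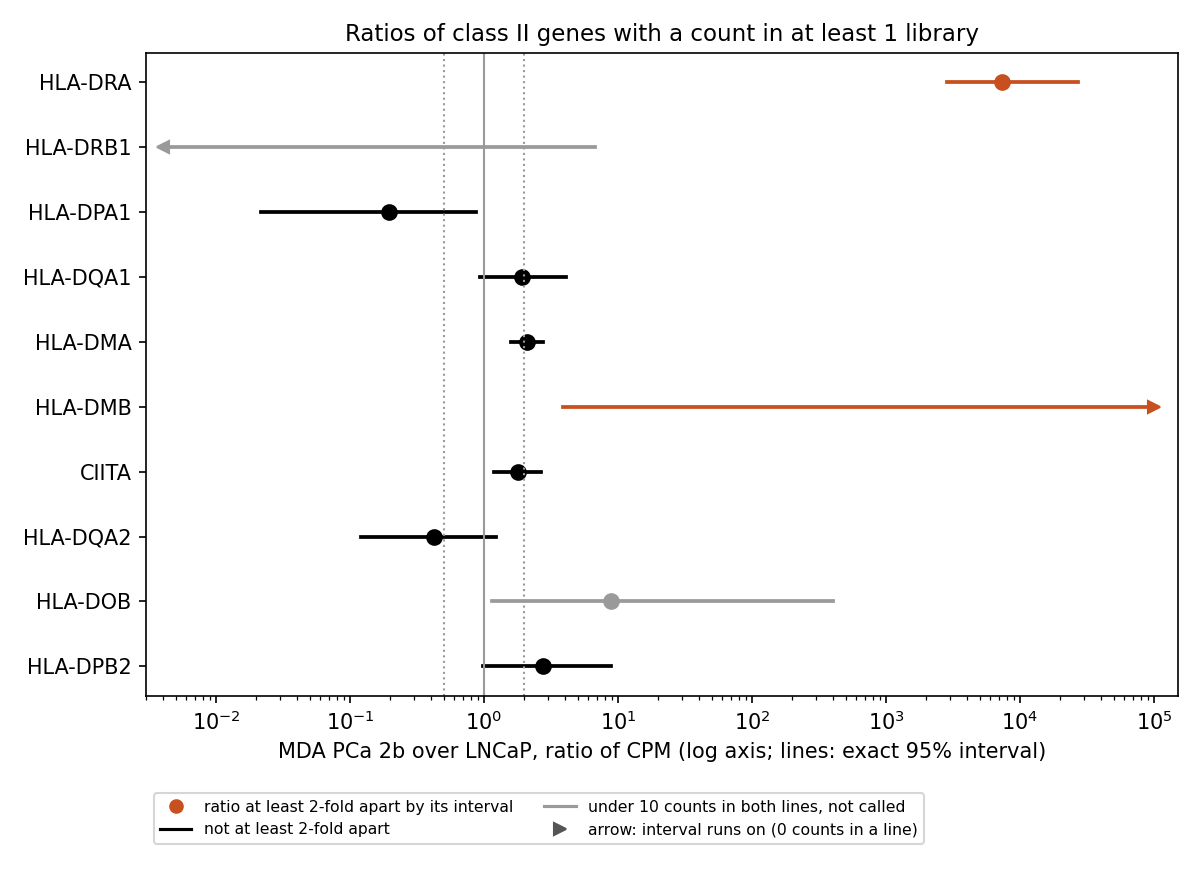
Ratio of MDA PCa 2b over LNCaP for each class II gene with a count in at least 1 library, on a log axis with exact 95% intervals, dotted lines at 2-fold in either direction and arrows where a count of 0 leaves the interval open. HLA-DRA at 7359 stands apart, HLA-DMB has a lower end of 3.88, and the other intervals reach inside 2-fold.

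The genes nearest to HLA-DRA in the plane of both libraries' log2(CPM + 1) values were CPLX3 (distance 0.49), DAPL1 (1.51) and CYP4F8 (2.38), a likeness over 2 libraries only. CPLX3, a synaptic complexin gene, had 23311 counts in MDA PCa 2b and 10 in LNCaP. DAPL1 had 8196 in MDA PCa 2b and 6 in LNCaP, and CYP4F8, a cytochrome P450 that acts on prostaglandins, had 4573 in MDA PCa 2b and 0 in LNCaP. None of these 3 is a gene of antigen presentation. They were picked for nearness to HLA-DRA on these same values, so their likeness to it follows from the choice. Among the other members, only HLA-DMB was called higher in MDA PCa 2b, at 13 counts against 0 in LNCaP.

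**Figure D4:**
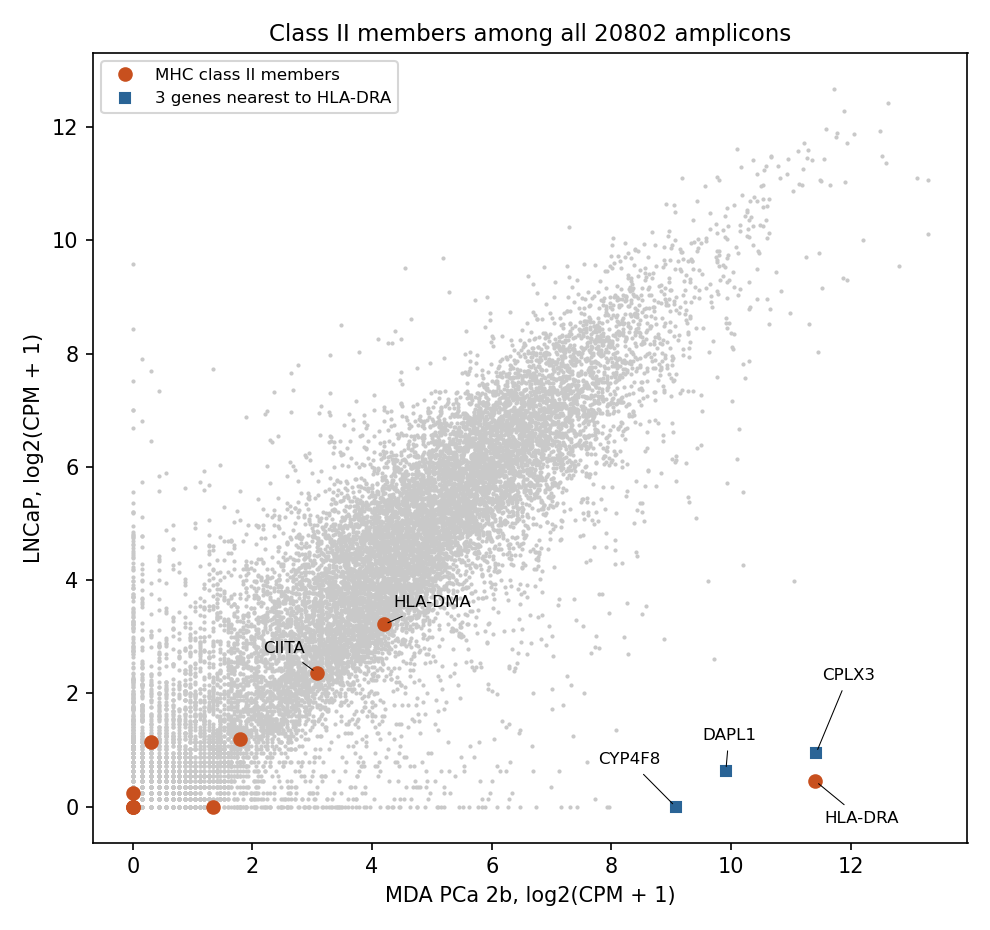
Levels of all 20802 amplicons as log2(CPM + 1), MDA PCa 2b on the x axis and LNCaP on the y axis, 1 grey point per amplicon, with the class II members in orange and the 3 genes nearest to HLA-DRA as blue squares. HLA-DRA lies at the lower right, while the other members lie at or near 0 or, like HLA-DMA and CIITA, within the main cloud.

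The nearest analysed genes on chromosome 6 did not share the profile of HLA-DRA. The order of genes along the class II region was taken from the GRCh38.p14 gene table, with no coordinates carried over. On one side of HLA-DRA, BTNL2, a butyrophilin-like gene, had 3 counts in MDA PCa 2b and 0 in LNCaP, and C6orf10 had 0 in both. On the other side, the next genes analysed were HLA-DRB6 with 0 counts in both libraries and HLA-DRB1 with 0 in MDA PCa 2b and 2 in LNCaP. The HLA-DRB1 row is uncertain, as said above, and HLA-DRB5, which lies ahead of HLA-DRB1, was not analysed here. In MDA PCa 2b, none of these analysed genes beside HLA-DRA had more than 3 counts. BRD2, a chromatin reader that lies between HLA-DMA and HLA-DOA, was abundant in both lines at 5680 counts in MDA PCa 2b and 5557 in LNCaP. Of 37 genes placed in or beside the region, 29 were measured and 4 were called higher in MDA PCa 2b: HLA-DRA, HLA-DMB, the immunoproteasome subunit PSMB8 and the collagen gene COL11A2. The only one called higher in LNCaP was HSD17B8, a steroid dehydrogenase gene. HLA-DRA and HLA-DMB are members chosen on these counts, so the count of 4 among 29 is not set against the background. Without the HLA genes, 22 genes were measured. Of these, 2 had a call for MDA PCa 2b (PSMB8 and COL11A2) and 1 for LNCaP (HSD17B8). The shares over all measured genes were 10.9% for MDA PCa 2b and 13.2% for LNCaP.

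Transcripts of the proteins that read class II promoters were found in both lines. All 12 genes of the list for the class II promoter complex were measured, and their median log2 ratio was -0.021. Called higher in MDA PCa 2b was 1, and 0 were called higher in LNCaP, beside 10.9% and 13.2% of all measured genes. RFX5, the DNA-binding subunit of the RFX complex, had 428 counts in MDA PCa 2b and 957 in LNCaP, 1.76-fold higher in LNCaP (1.57 to 1.97). Its partner RFXAP went the other way, with 265 counts in MDA PCa 2b and 185 in LNCaP (ratio 1.82, 1.51 to 2.21), while RFXANK had 463 in MDA PCa 2b and 621 in LNCaP. The subunits of NF-Y were close to even, with NFYC at 318 counts in MDA PCa 2b and 396 in LNCaP (ratio 1.02, 0.880 to 1.19). NFYA had a ratio of 1.40 (1.25 to 1.56), and NFYB was 1.17-fold higher in LNCaP (1.07 to 1.27). CREB1, which binds the X2 box, was 1.41-fold higher in LNCaP (1.25 to 1.58). The 1 gene called was CREBBP, a histone acetyltransferase that CIITA recruits, with 4410 counts in MDA PCa 2b and 1183 in LNCaP (ratio 4.75, 4.45 to 5.07). EP300, its close relative, had a ratio of 1.89 (1.70 to 2.11), and CARM1, an arginine methyltransferase that works with both, had 1.94 (1.68 to 2.24).

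No gene of the route from interferon gamma to CIITA was called higher in MDA PCa 2b, beside 10.9% of all measured genes. Of 9 genes found, 8 were measured, and 1 was called higher in LNCaP, beside 13.2% of all measured genes. That gene was JAK2, a kinase of the interferon gamma receptor, with 138 counts in MDA PCa 2b and 667 in LNCaP (3.80-fold higher in LNCaP, 3.16 to 4.59). The receptor chains IFNGR1 and IFNGR2 had 200 and 89 counts in MDA PCa 2b, against 286 and 154 in LNCaP. JAK1, the other receptor kinase, had 102 counts in MDA PCa 2b and 132 in LNCaP, and all 3 of these ratios lay within 2-fold. IRF1, which acts on the CIITA promoter, had 80 counts in MDA PCa 2b and 75 in LNCaP (ratio 1.36, 0.979 to 1.89). IFNG itself was at 0 in both, and SOCS1 was not analysed here.

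Interferon gamma target genes were split in direction, and most were low. Of 12 found, 7 were measured, and their median log2 ratio was -0.67. GBP3 was called higher in MDA PCa 2b (32 counts in MDA PCa 2b against 9 in LNCaP). GBP2 was called higher in LNCaP (9 counts in MDA PCa 2b against 81 in LNCaP). That is 1 gene each way, beside 10.9% and 13.2% of all measured genes. GBP2 and GBP3 encode guanylate-binding proteins. WARS, a tRNA synthetase gene, was the abundant one, with 985 counts in MDA PCa 2b and 1408 in LNCaP (1.12-fold higher in LNCaP, 1.03 to 1.22). The chemokine genes CXCL9 and CXCL11 were at 0 in both libraries. NLRC5, the coactivator of class I genes that is related to CIITA, had 32 counts in MDA PCa 2b and 66 in LNCaP (1.62-fold higher in LNCaP, 1.05 to 2.55).

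Among lineage factors that act on CIITA, SPI1, IRF4, IRF8 and EBF1, which mark B cells and myeloid cells, were at 0 in both lines, and 2 of 8 were measured. These were BCL6, a repressor, with 353 counts in MDA PCa 2b and 354 in LNCaP, and TCF3, an E protein, with 484 in MDA PCa 2b and 369 in LNCaP. Neither was called higher in a line.

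Genes that process the invariant chain and antigen were all measured, and more of them were higher in LNCaP. Of the 12, 1 was called higher in MDA PCa 2b and 3 were called higher in LNCaP, beside 10.9% and 13.2% of all measured genes. The median log2 ratio of the 12 was -0.88. LGMN, an asparagine-specific endopeptidase that can start invariant chain cleavage, had 3270 counts in MDA PCa 2b and 1643 in LNCaP (ratio 2.53, 2.39 to 2.69). The 3 proteases called higher in LNCaP were CTSB by 4.09-fold (interval 3.42 to 4.90), CTSH by 3.21-fold (interval 2.90 to 3.56) and CTSD by 2.80-fold (interval 2.56 to 3.07). CTSS, which makes the last cuts in the invariant chain of professional presenting cells, had 21 counts in MDA PCa 2b and 7 in LNCaP (ratio 3.82, 1.56 to 10.6). CTSL, which does this in thymic epithelium of mice, had 611 counts in MDA PCa 2b and 1490 in LNCaP, and IFI30, the lysosomal thiol reductase, had 238 in MDA PCa 2b and 155 in LNCaP. Neither gene was called. Transcripts of all 12 were thus detected in both lines, CTSS at only 7 counts in LNCaP, while CD74 transcripts were at 0.

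Of the 11 traffic and turnover genes, all measured, 0 were called higher in MDA PCa 2b and 5 were called higher in LNCaP. The shares over all measured genes were 10.9% and 13.2%. The median log2 ratio of the 11 was -0.79. MARCH1, a ubiquitin ligase that removes class II molecules from the surface, had 0 counts in MDA PCa 2b and 36 in LNCaP, at least 9.42-fold higher in LNCaP when the 36 counts are set against 3, with a lower interval end of 7.28. CD83, which opposes MARCH1, had 10 counts in MDA PCa 2b and 67 in LNCaP (5.26-fold higher in LNCaP, 2.69 to 11.5). The pair thus stood on the same side. MARCH8, the broadly expressed relative of MARCH1, had 111 counts in MDA PCa 2b and 245 in LNCaP (1.73-fold higher in LNCaP, 1.38 to 2.19). RAB7A, a GTPase of late endosomes, the tetraspanin CD9 and the lysosomal membrane protein LAMP2 were called higher in LNCaP, by 3.15-fold, 2.83-fold and 2.73-fold. ARL14, a GTPase of class II vesicle movement, had 396 counts in MDA PCa 2b and 268 in LNCaP (ratio 1.88, 1.61 to 2.21).

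CD74 also serves as a receptor for the cytokine MIF, together with CD44. CD44 had 1 count in MDA PCa 2b and 0 in LNCaP, and MIF was not analysed here. DDT, the relative of MIF, had 306 counts in MDA PCa 2b and 595 in LNCaP (1.53-fold higher in LNCaP, 1.33 to 1.76). Signals to T cells that accompany class II were few. Of 11 ligand genes found, 6 were measured, 0 were called higher in MDA PCa 2b and 2 were called higher in LNCaP. Among all measured genes, 10.9% and 13.2% were called. CD274, which encodes the inhibitory ligand PD-L1, had 38 counts in MDA PCa 2b and 368 in LNCaP (7.60-fold higher in LNCaP, 5.44 to 10.9). CD58, the adhesion ligand of CD2, had 88 counts in MDA PCa 2b and 313 in LNCaP (2.79-fold higher in LNCaP, 2.20 to 3.58). CD86 was at 0 in both lines, and CD80 had 1 count in MDA PCa 2b and 3 in LNCaP.

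Counted over the route lists together, 79 of 82 genes were found and 59 were measured. Called higher in MDA PCa 2b were 3 of them (CREBBP, GBP3 and LGMN), 12 were called higher in LNCaP and 44 were neither, beside shares of 10.9% and 13.2% over all measured genes. Their median log2 ratio was -0.44, beside -0.0018 over all measured genes and 0.99 for the measured members.

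**Figure D5:**
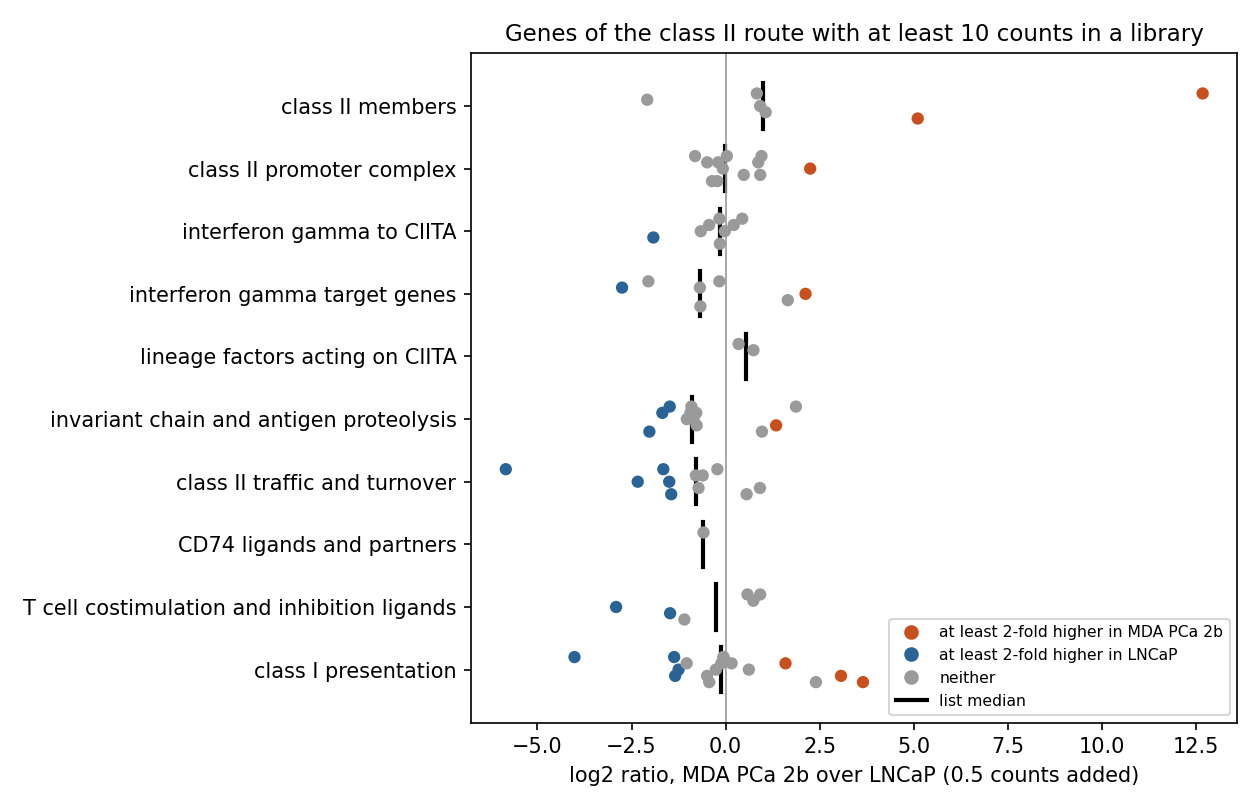
Log2 ratio of MDA PCa 2b over LNCaP, with 0.5 counts added, for the measured genes of the class II members, of each route list and of class I presentation, 1 point per gene, with black bars at the list medians. HLA-DRA is the point at 12.7, and the medians of the route lists with more than 2 measured genes lie between -0.88 and -0.021.

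Class I presentation is the sister route that shows peptides to CD8+ T cells. Of 18 genes, 17 were measured, 3 were called higher in MDA PCa 2b and 4 were called higher in LNCaP. Among all measured genes, 10.9% and 13.2% were called. The median log2 ratio of the 17 was -0.11. HLA-B, a classical heavy chain, had 119 counts in MDA PCa 2b and 50 in LNCaP (ratio 3.03, 2.16 to 4.31), and PSMB8 had 103 in MDA PCa 2b and 10 in LNCaP (ratio 13.1, 6.85 to 28.2). ERAP2, a peptide-trimming enzyme, was 8.77-fold higher in MDA PCa 2b, and HLA-C, HLA-E and PDIA3 were among those called higher in LNCaP. B2M, the shared light chain, had 2990 counts in MDA PCa 2b and 3969 in LNCaP (ratio 0.959, 0.915 to 1.01). Whether alleles that differ under a primer lower an HLA value was not tested.

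Markers of other class II-expressing cells were low in both lines. Over 50 markers of B cells, dendritic cells, monocytes and macrophages, leukocytes at large, T cells and endothelium, 20 were at 0 in both libraries and 14 were measured, and they summed to 188 CPM in MDA PCa 2b and 194 CPM in LNCaP. The defining leukocyte marker PTPRC, which encodes CD45, was at 0 in both, and so were the B cell genes MS4A1 and BLK. LCP1, an actin-bundling gene that carcinoma lines also express, supplied 74.0 of the 74.5 CPM of leukocyte markers in MDA PCa 2b and 133 of the 133 CPM in LNCaP. B cell markers summed to 22.1 CPM in MDA PCa 2b and 20.3 CPM in LNCaP. Of 4 measured B cell markers, CD22 (ratio 2.12, 1.35 to 3.37), CR2 (1.71, 1.21 to 2.43) and CD79B (1.62, 1.03 to 2.56) had ratios above 1 without a call. The adaptor gene BANK1, with 2 counts in MDA PCa 2b and 78 in LNCaP, was called higher in LNCaP. Among endothelial markers, PECAM1 had 36 counts in MDA PCa 2b and 18 in LNCaP (ratio 2.55, 1.41 to 4.76) without a call. VWF, with 1 count in MDA PCa 2b and 20 in LNCaP, was called higher in LNCaP.

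Some markers of monocytes and macrophages were called higher in MDA PCa 2b. Of 12 markers, 5 were measured, 3 were called higher in MDA PCa 2b and 0 were called higher in LNCaP. Among all measured genes, 10.9% and 13.2% were called. The 12 markers summed to 66.5 CPM in MDA PCa 2b and 25.4 CPM in LNCaP. The 3 called were the lysosomal glycoprotein CD68, the endotoxin coreceptor CD14 and the receptor CSF1R, at ratios of 2.76, 2.79 and 2.85. CD68 had 251 counts in MDA PCa 2b and 116 in LNCaP, CD14 had 149 and 68, and CSF1R had 130 and 58. CD163, with 10 counts in MDA PCa 2b and 4 in LNCaP, had a ratio of 3.18 (0.918 to 13.9) without a call. ITGAM, with 20 in MDA PCa 2b and 27 in LNCaP, had a ratio of 0.943 (0.502 to 1.75). LYZ, MRC1, MARCO and FCGR3A, abundant or defining in such cells, were at 0 in both lines, and TYROBP and FCER1G had 1 count each in MDA PCa 2b and 0 in LNCaP. Dendritic cell markers summed to 19.97 CPM in MDA PCa 2b and 11.8 CPM in LNCaP, with CLEC10A, XCR1 and FCER1A at 0 in both. Both measured dendritic cell markers had ratios above 1 without a call: CD1C had 133 counts in MDA PCa 2b and 103 in LNCaP (ratio 1.64, 1.26 to 2.15), and LAMP3 had 29 in MDA PCa 2b and 18 in LNCaP (ratio 2.05, 1.10 to 3.92). In MDA PCa 2b, HLA-DRA stood at 2716 CPM, all 50 markers summed to 188 CPM, and CD74 was at 0. These are levels of different amplicons, so the sum and HLA-DRA are not on a common scale. What part cells with these markers have in the level of HLA-DRA was not tested. In a bulk library, fewer cells with a transcript and less of it per cell cannot be told apart.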

How the data were processed

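Each line had 1 AmpliSeq Transcriptome library from 10 ng of total RNA, per the labels' protocols. The authors deposited whole-number read counts per amplicon, 1 amplicon per gene, with no normalization visible in them. Build hg19 and DESeq are named, without a stated role, per the submitters' processing notes. Which aligner, counter and filters were used is not given in the sources used here. In all, the deposited table held 20812 rows, of which 10 were spike-in controls with 0 counts, and 28 symbols that a spreadsheet had turned into dates were restored from gene identifiers.

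Counts were scaled with edgeR 4.0.16 (TMM, R 4.3.3), with factors of 0.994 for MDA PCa 2b and 1.006 for LNCaP. Ratios have exact Clopper-Pearson 95% intervals conditional on the sum of both counts (scipy 1.17.1), and log2 ratios have 0.5 counts added. Where a library was at 0, the fold against 3 counts in that library is given as a lower bound that takes the other count as it is, beside the lower end of the interval. Each line having a single library, spread between cultures is unknown, no p-value was calculated, and the comparisons hold for these 2 libraries. The interval step was tested on simulated counts. Promoter sequences come from RefSeq on GRCh38.p14, which is not the build the notes name, and no coordinate was taken from the count table.

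The members, lists and thresholds were chosen with earlier results of these data known. Named genes are the members, the other class II genes, the best known genes of the route, up to 6 genes of each list with at least 50 counts and the largest ratios, markers with at least 10 counts, and the 3 genes nearest to HLA-DRA. Further genes, among them GBP3, HLA-C, B2M, the genes of the class II region and several genes listed at 0, were named after their values were seen. Some genes of the lists are not reported here by name. Other scalings (total counts, DESeq2 1.42.0 size factors, upper quartile), filters, fold thresholds, an assumed spread between cultures and thinning of LNCaP were tried. Scaling without small nucleolar RNAs was chosen after seeing the data.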

Additional observations from a re-analysis of the deposited data

How the results depend on the processing

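Among class II members, the count called higher in MDA PCa 2b was 2, and it was 1 with a minimum of 50 counts, at a 4-fold threshold and with an assumed spread of 40% between cultures, where HLA-DMB was lost. HLA-DRA kept its call under every setting run, and the count of members higher in LNCaP was 0 under each. Among the route lists, the count higher in MDA PCa 2b was 3, against 1 at the 4-fold threshold, 1 with an assumed spread of 20% and 0 with 40%. The count higher in LNCaP was 12, against 2 at the 4-fold threshold, 6 with a spread of 20% and 2 with 40%. LGMN, CTSH, CTSD and CD9 were among the genes that lost their call with a spread of 20%. Over all genes, the 1567 genes called higher in MDA PCa 2b and the 1910 called higher in LNCaP became 608 and 554 at the 4-fold threshold, and 537 and 492 with a spread of 40%. The assumed spreads are not measured ones. Of 18 genes followed under every setting, the 6 measured members included, 0 were reversed. Of 124 measured list genes, 8 changed the sign of their log2 ratio under another scaling, none of them called: NFYC under DESeq2 size factors, and RFXANK, JAK1, B2M, PSMB9, VPS52, RGL2 and ITGAM under upper quartile scaling. Scaling by total counts, DESeq2 size factors or upper quartile, or without small nucleolar RNAs, moved the median log2 ratio of all measured genes by -0.016, -0.041, 0.089 and 0.071. Thinning LNCaP to the depth of MDA PCa 2b put the log2 ratio of HLA-DRA at 13.9 in place of 12.7, since only 4 LNCaP counts stood behind it. No paired analysis was possible because each line had 1 library, and for the same reason no replicate could be left out. Depth limits what can be said of HLA-DRB1, HLA-DPB1, HLA-DOA and CD74, whose 0 counts allow up to 0.352 CPM in MDA PCa 2b. These limits are for the amplicon, and how well each HLA amplicon reads the alleles of these lines was not tested.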
